A study of Caenorhabditis elegans with 43 samples.

Results

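The genes described here were 100 genes of Caenorhabditis elegans that carry a sequence name, such as F10B5.3, in place of a hyphenated gene name. They were chosen on the wild type N2 alone. A candidate needed a mean of at least 5 CPM (a gene's count over the library's column sum, scaled to a common total) at 26, 28 and 30 h. Candidates were then ranked by that middle mean plus 0.5 over the larger of the means at 18 to 22 h and 34 to 38 h plus 0.5, and the top 100 were taken. There were 3115 candidates among 8018 sequence-named genes, in a table of 20182 genes.

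The study measured ribosome-depleted total RNA of whole worms in 43 libraries. Synchronized larvae of 4 strains were grown at 25 °C from the first larval stage and collected each 2 h, over late larval life. The strains were let-7(n2853) (10 libraries, 18 to 36 h), lin-41(xe11) (11, 18 to 38 h), lin-41(xe11);let-7(n2853), called the double mutant below (11, 18 to 38 h), and N2 (11, 18 to 38 h), with 1 library for each strain at each hour sampled. In n2853 a point mutation makes let-7 temperature-sensitive, and xe11 changes the let-7 complementary sites of lin-41, so every mutant strain has impaired control of lin-41 by let-7. The labels do not say whether the hours of a strain were separate cultures, so p-values measure only the spread between these libraries.

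The microRNA let-7 accumulates late in larval life and represses lin-41, which encodes an RNA-binding TRIM-NHL protein of the heterochronic pathway, the pathway that times larval cell fates. Larval development is also divided by molts. Many worm transcripts rise and fall once per larval stage, each at its own phase of the molting cycle, and many are made in the epidermis, which builds a new cuticle at every stage. No role is assigned below to the sequence-named genes, since the sources used here annotate none. The RefSeq table gives a hyphenated symbol to 3 of them, btbz-2 for F10B5.3, gtnt-42 for T06A1.5 and dbd-20 for F35B3.4.

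The depth was 22.9 to 32.9 M counts a library for let-7(n2853), the deepest strain, then 11.2 to 16.5 M for lin-41(xe11), 12.7 to 25.0 M for the double mutant and 12.6 to 16.1 M for N2. The gene lin-41, over 28 to 36 h, averaged 127 ± 25.8 CPM in let-7(n2853), 74.1 ± 28.0 CPM in lin-41(xe11), 73.8 ± 24.2 CPM in the double mutant and 34.9 ± 7.33 CPM in N2 (SD over 5 hours). It thus sets let-7(n2853) and N2 apart from the other strains, but does not check the labels of lin-41(xe11) and the double mutant against each other. The let-7(n2853) library of 18 h and the double mutant library of 22 h had been placed out of step by their oscillating genes in an earlier look at these data, and the counts of humps, valley hours, peak hours, crests and rhythm, and the widths, are given with and without them. In whole worms, fewer cells of a type and less RNA per cell cannot be told apart.

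The ratio that chose the genes was small for most of them. In N2 it ran from 3.71 for F10B5.3 down to 1.23, with a median of 1.31. It was at least 2 in 3 genes and at least 1.5 in 19, and it was under 1.3 in 46. The last genes inside the list were F58G6.3 (1.230), ZK1055.7 (1.229) and C34F6.11 (1.228). The first outside were Y46D2A.2 (1.226), K02E7.10 (1.226) and F53B2.8 (1.225), so the edge of the list falls at no gap.

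The same ratio in the mutant strains, whose libraries the choice did not use, had a median over the 100 genes of 1.19 for let-7(n2853), 1.16 for lin-41(xe11) and 1.09 for the double mutant. Over all candidates the medians were 0.924, 0.873 and 0.871 in these strains and 0.901 in N2. The genes were ranked on the N2 ratio, so a higher N2 value follows from the choice and is not compared with the mutant values. The ratio stayed above 1 for 85 of the 100 genes in let-7(n2853), for 83 in lin-41(xe11) and for 69 in the double mutant. It reached the value of the last gene in the N2 list for 40, 35 and 22 of them.

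Most of the genes rose more than once by the bound given next. Their level typically rose to a first hump at 22 or 24 h, sank at 26 or 28 h, inside the very hours taken as the middle, and rose to a second hump at 30 h. A profile was counted as 2-humped where the lowest hour between the highest hour of 18 to 26 h and that of 28 to 36 h was at most 0.75 of the lower hump. This held for 84 genes in let-7(n2853), for 79 in lin-41(xe11), for 75 in the double mutant and 63 in N2. Among the other 3015 candidates the shares were 40.8%, 44.3%, 43% and 30.6%. It held in all 4 strains for 56 genes and in no strain for 11. With the stricter bound of 0.5 the counts were 61, 54, 50 and 30. Without the doubted library of 18 h the count in let-7(n2853) was 84, and without that of 22 h the count in the double mutant was 60; leaving out 22 h takes away an hour of the first hump. Without both, 43 genes were 2-humped in all 4 strains and 11 in none. Since the first hump is common, the list is described here by its rule and not as genes of a mid-course peak.

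**Figure D1:**
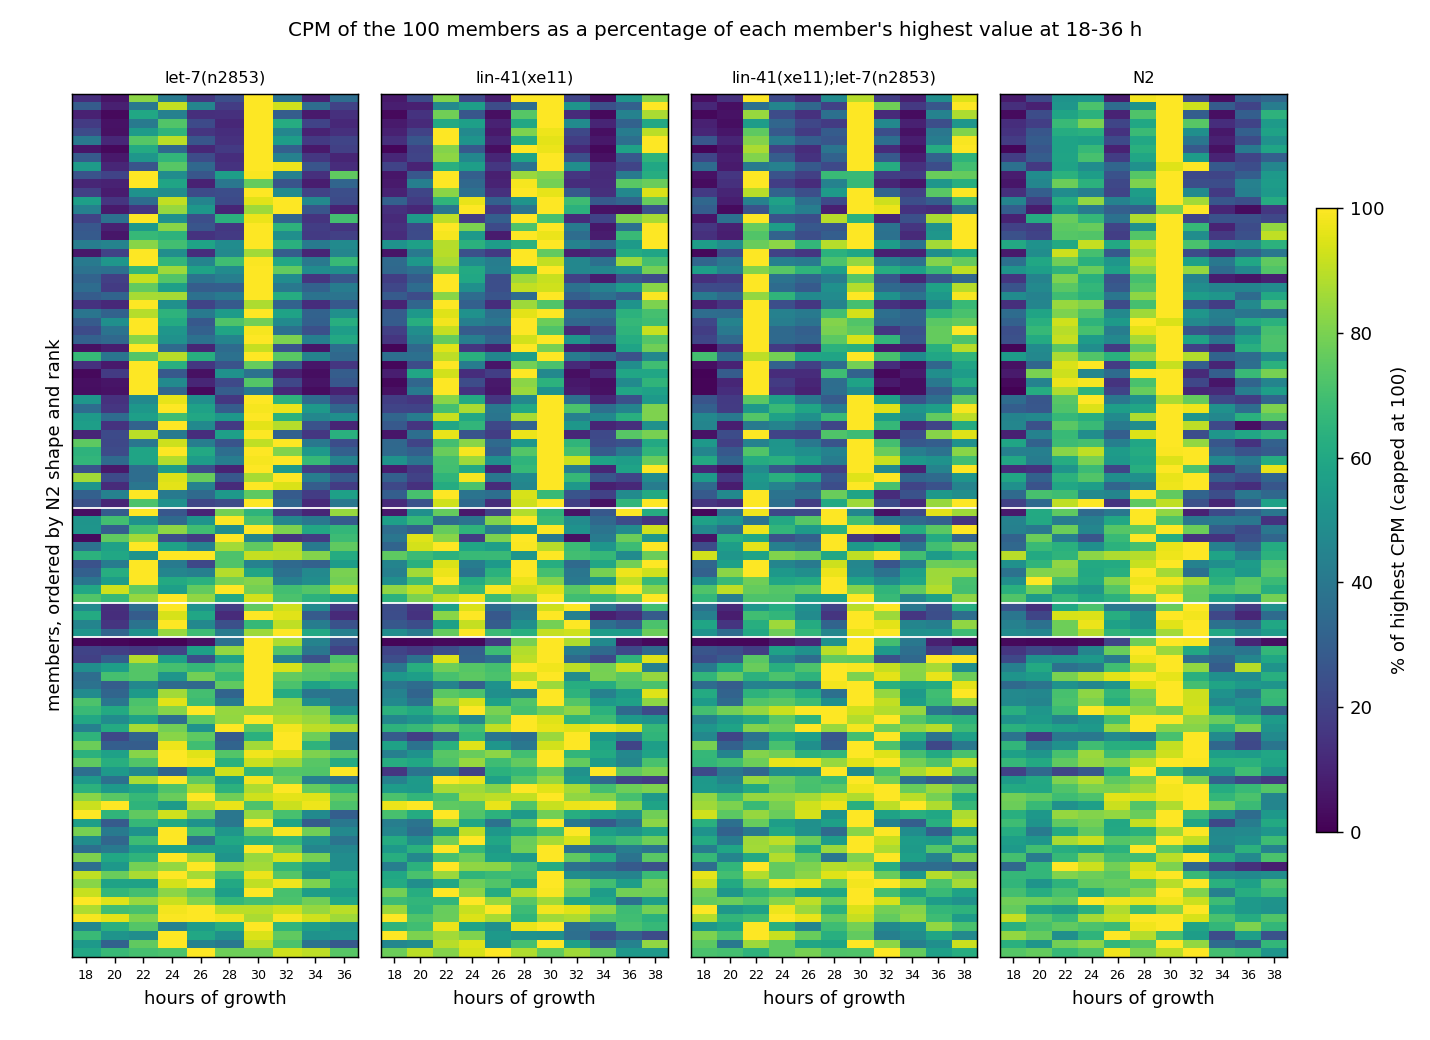
CPM of the 100 genes (rows) by hours of growth (columns) in let-7(n2853), lin-41(xe11), the double mutant and N2, as a percentage of each gene's highest value at 18 to 36 h in that strain, capped at 100. White lines part the 48 genes with an N2 valley at 26 h, 11 with one at 20 to 24 h, 4 with one at 28 h and 37 whose N2 valley was above 0.75 of the lower hump or absent (6 genes); bright columns at 22 to 24 h and 30 h run through the upper block in every strain.

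The typical profile shows the valley as well. As a percentage of each gene's own highest value at 18 to 36 h, the median in let-7(n2853) was 32.4 at 20 h, 72.1 at 24 h, 48.8 at 28 h, 96.9 at 30 h and 41.6 at 34 h. In lin-41(xe11) it was 39.8 at 20 h, 81.7 at 22 h, 40 at 26 h, 97.8 at 30 h and 35.1 at 34 h, and in the double mutant 34.4, 77.7, 49.6, 96.8 and 37.8 at the same hours. In N2 it was 48.6, 68.9, 55.4, 100 and 35.0. The median was thus low at 18 to 20 h, at 26 or 28 h and at 34 h in all 4 strains. The N2 valley was the shallowest, with a median of 0.635 of the lower hump, against 0.429 for let-7(n2853), 0.422 for lin-41(xe11) and 0.488 for the double mutant. The N2 libraries of 26 to 30 h helped choose the genes, so the N2 depth is a description. After 34 h the level was higher again, with medians at 38 h of 71.4% for lin-41(xe11) and 71.4% for the double mutant, against 54.9% in N2. The rule also favoured genes low in N2 at 34 to 38 h. A lower N2 value there thus follows from the choice and is a description.

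The valley sat at 28 h for more genes in let-7(n2853) and the double mutant than in lin-41(xe11) and N2. Among the 2-humped genes it fell at 26 h for 35 and at 28 h for 44 in let-7(n2853). It fell at 26 h for 61 and at 28 h for 10 in lin-41(xe11), for 34 and 28 in the double mutant, and for 48 and 4 in N2. Without the doubted libraries the counts were 35 and 44 in let-7(n2853) and 21 and 25 in the double mutant. Of the other 3015 candidates, 227 had their N2 valley at 26 h and 696 at another hour. Their valley hours in the mutants are not given here, so the shift is not read as particular to the list. The N2 hours of 26 to 30 h helped choose the genes, so the N2 counts are a description.

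Peak hours, taken as the hour of the highest CPM at 18 to 36 h, had a median of 30 h in every strain, but they split into an early and a late set in the mutants. The peak lay at 28 to 32 h for 55 genes in let-7(n2853), for 70 in lin-41(xe11), for 68 in the double mutant and 92 in N2. It lay at 18 to 24 h for 37, 25, 28 and 7 genes. Of the other 3015 candidates 1391, 1442, 1489 and 1412 peaked at 18 to 24 h in the same order of strains. At 28 to 32 h there were 538, 809, 717 and 712 of them. The hour 22 h alone held the peak for 19 genes of let-7(n2853), for 17 of lin-41(xe11), for 26 of the double mutant and for 1 of N2. Each hour is 1 library, so leaving out 22 h has to move these genes. Without it 18, 10, 3 and 6 genes peaked at 18 to 24 h, and 73, 85, 90 and 93 at 28 to 32 h. Without the doubted 18 h library the counts of let-7(n2853) stayed at 37 and 55. The single most common hour was 30 h, with 42, 46, 46 and 57 genes. Only 19 genes peaked at the same hour in all 4 strains, and 40 did so within 2 h. The first hump was the higher one for 44 genes in let-7(n2853), for 27 in lin-41(xe11), for 30 in the double mutant and 8 in N2. Without the 22 h library of each strain in turn these counts were 25, 12, 5 and 7, and without the 18 h library that of let-7(n2853) was 44. With all libraries the first hump was the higher one for 1813, 1556, 1523 and 1543 of the other 3015 candidates. Where 38 h was sampled and counted, it was the highest hour for 10 genes in lin-41(xe11), 12 in the double mutant and 0 in N2. For the other 3015 candidates these counts were 807, 774 and 656. The N2 counts follow from the rule and are given as a description.

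**Figure D2:**
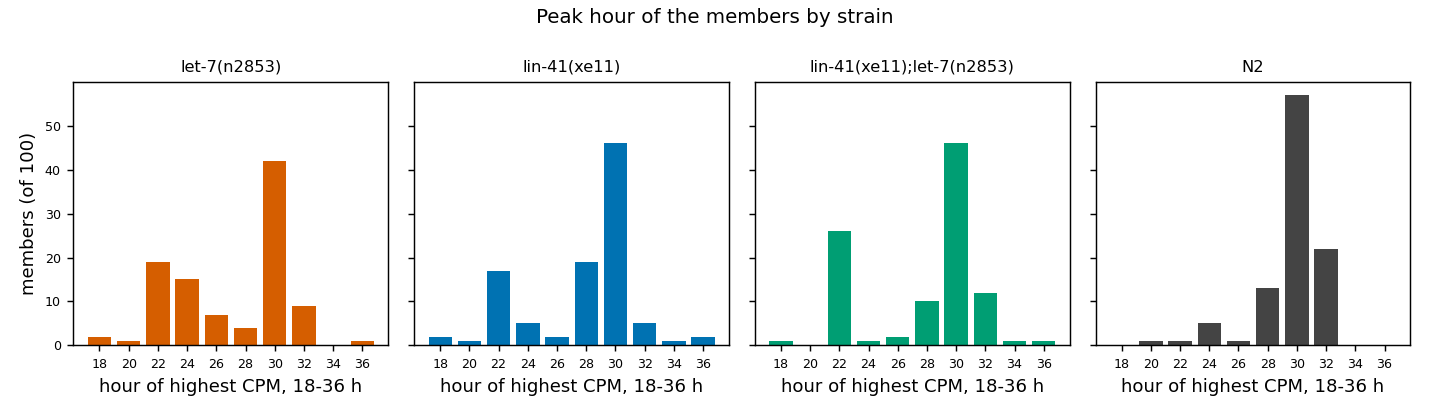
Number of the 100 genes (vertical axis) by the hour of their highest CPM at 18 to 36 h (horizontal axis), 1 panel per strain. The bar at 30 h is the tallest in each panel, with 42, 46, 46 and 57 genes from left to right, and the mutant panels have a second group of bars at 22 to 24 h.

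The width of the humps differed within the list. The full width at 0.5 of the maximum had a median of 5.06 h in let-7(n2853), 5.42 h in lin-41(xe11), 5.34 h in the double mutant and 9.30 h in N2. In 27, 33, 33 and 32 genes the width reached an end of the sampled hours, and for the other candidates the median was the whole 18 h in each strain. Measured at 0.5 of the height above the lowest hour, the medians were 3.41, 4, 3.35 and 4.62 h, so the strains lay closer together by this measure. Without the doubted libraries the median width at 0.5 of the maximum was 5.05 h in let-7(n2853) and 5.58 h in the double mutant. The width at 0.5 of the maximum also differed by N2 shape. For the 48 genes with an N2 valley at 26 h its median was 3.70, 4.15, 3.11 and 4.85 h, in the same order of strains. For the 37 genes without an N2 valley by the bound given above it was 14.0, 14.5, 15.7 and 15.4 h. The N2 shape uses hours of the rule, so this split is a description. Sampling each 2 h limits the resolution of both measures.

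F10B5.3 (btbz-2 in RefSeq) came nearest to a single mid-course peak. Ensembl places it on the minus strand at II:8147184-8150030 (WBcel235), with up to 5 exons and a longest coding sequence of 471 codons. In let-7(n2853) it stood at 0.304 CPM at 22 h (8 counts), 1.42 at 26 h, 11.5 at 28 h, 30.9 at 30 h, 27.02 at 32 h, 13.8 at 34 h and 7.94 at 36 h. In lin-41(xe11) the values were 0.729, 4.74, 22.8, 28.6, 25.2, 13.6 and 1.61 CPM at the same hours. The double mutant had 0.560, 3.82, 16.7, 32.9, 23, 13.1 and 2.87 CPM, and N2 had 0.536, 6.08, 22.7, 29.2, 28.9, 10.2 and 3.08 CPM. The gene was thus low up to 24 h in every strain, at 2.31 CPM or less, and highest at 30 h in all 4. At 38 h it was down to 0.683 CPM in lin-41(xe11), 0.877 CPM in the double mutant and 1.23 CPM in N2, while let-7(n2853) was not sampled then. At 28 h the 4 values ran from 11.5 CPM in let-7(n2853) to 22.8 CPM in lin-41(xe11). It overlaps F10B5.2 on the other strand. No source used here gives the strand setting of the counting, so it is not known whether reads of overlapping genes were kept apart.

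T05H10.4 (plus strand, II:8053150-8054916, up to 4 exons, 436 codons) had a broader hump in the middle hours. In let-7(n2853) its level was 2.36 CPM at 22 h, 7.95 at 26 h, 11.7 at 28 h, 14.0 at 30 h, 10.2 at 32 h and 2.74 at 36 h. In lin-41(xe11) it was 2.80, 8, 10.31, 11.7, 4.91 and 2.55 CPM at those hours, in the double mutant 1.92, 5.29, 9.38, 10.5, 5.65 and 1.82 CPM, and in N2 1.88, 7.88, 10.2, 8.69, 6.12 and 3.96 CPM. At 38 h it was higher again, with 4.04 CPM in lin-41(xe11), 3.91 CPM in the double mutant and 6.75 CPM in N2. In each mutant all 3 values at 26 to 30 h lay above those at 18 to 22 h. The width at 0.5 of the maximum was 7.71 h in let-7(n2853), 6.70 h in lin-41(xe11), 8.82 h in the double mutant and 8.77 h in N2.

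**Figure D3:**
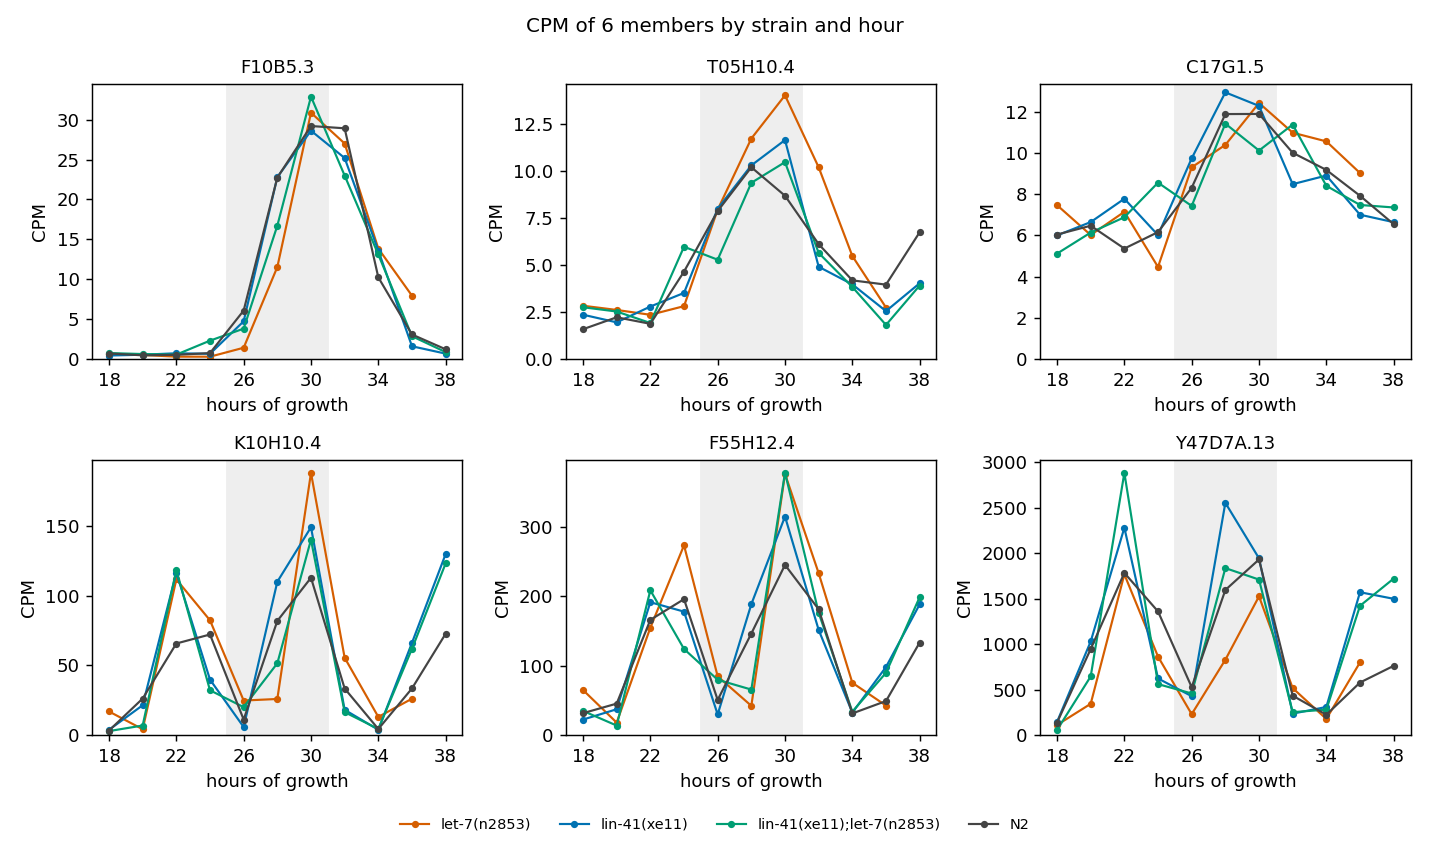
CPM (vertical axis, from 0, own scale per panel) by hours of growth (horizontal axis) for 6 genes, 1 line per strain and 1 point per library; grey marks the middle hours. F10B5.3, T05H10.4 and C17G1.5 are highest at 28 or 30 h in each strain, F10B5.3 at 30 h in all 4, and T05H10.4 is up again at 38 h, while K10H10.4, F55H12.4 and Y47D7A.13 rise at 22 to 24 h and again at 28 to 30 h, and in the strains sampled to 38 h once more after 34 h.

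Most other genes of high rank rose repeatedly. K10H10.4 (plus strand, II:14500422-14501663, 236 codons) had 112 CPM at 22 h in let-7(n2853), 24.9 at 26 h, 188 at 30 h and 13.3 at 34 h. In lin-41(xe11) it had 116, 6, 149 and 4.06 CPM at these hours, in the double mutant 118, 20.2, 140 and 4.63 CPM, and in N2 65.7, 11.4, 113 and 4.59 CPM. At 38 h it was back at 130 CPM for lin-41(xe11) and 123 CPM for the double mutant, against 72.7 CPM in N2. The gap to N2 is a description, since low N2 values at 34 to 38 h helped choose the genes. The neighbour K10H10.10 on the same strand, 6102 bases away, had the rank 2 against 4 for K10H10.4. Its levels were lower, with 7.44, 10.1, 7.37 and 8.08 CPM at 30 h in the 4 strains and 0.333 CPM (5 counts) in N2 at 34 h.

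F55H12.4 (minus strand, I:8893311-8894137, 208 codons) stood at 273 CPM at 24 h in let-7(n2853), 42.5 at 28 h and 376 at 30 h. In lin-41(xe11) it stood at 178, 189 and 314 CPM, in the double mutant at 124, 65.9 and 377 CPM and in N2 at 196, 146 and 245 CPM. At 28 h let-7(n2853) and the double mutant were low, while lin-41(xe11) and N2 were above 100 CPM. The valley of lin-41(xe11) and N2 fell at 26 h instead, at 30.2 and 51.0 CPM. At that hour let-7(n2853) had 84.9 CPM and the double mutant 79.9 CPM. F55H12.4 overlaps F55H12.3 on the other strand. Y37H2A.14, K07E1.1, T10H9.8, C06E8.5, Y51A2D.21 and T28H10.2, also among the 12 genes of highest rank, had an N2 valley of at most 0.75 as well, and Y113G7B.12 was just outside at 0.759. C06E8.5 had the deepest N2 valley of these 7, at 0.142, with 67.3 CPM at 30 h in let-7(n2853) against 7.41 at 26 h, and 51.5 against 4.90 CPM in N2.

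F55H12.4 is also 1 of the 6 genes with the highest N2 level, of which Y47D7A.13, K01D12.9 and T01D3.6 followed such a course too. Y47D7A.13, a gene of 1 exon (minus strand, V:4434992-4435927, 311 codons), had 1768 CPM at 22 h in let-7(n2853), 233 at 26 h and 1526 at 30 h. In N2 it had 1784, 529.8 and 1931 CPM. K01D12.9 (minus strand, V:12403956-12404644, 109 codons) came back late, with 639 CPM at 36 h for let-7(n2853), 760.3 for lin-41(xe11) and 635 for the double mutant, against 184 CPM in N2. T01D3.6 was 2-humped in all 4 strains, with a valley of 0.479 of the lower hump for let-7(n2853), 0.584 for lin-41(xe11), 0.662 for the double mutant and 0.665 for N2. Y39G8B.9 had valleys of 0.574, 0.681, 0.800 and 0.854, so it was 2-humped in let-7(n2853) and lin-41(xe11). T09B4.8, the last of the 6, moved less and stayed between 124 and 185 CPM in let-7(n2853) and between 74.9 and 165 CPM in N2 over all hours.

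The first test asked which genes had a mid-course peak in the mutants, whose libraries did not choose them. edgeR's quasi-likelihood test compared the middle hours with the early and with the late hours in 26 libraries, and a gene was called peaked where it was higher in the middle in both contrasts with an adjusted p under 0.05 (Benjamini-Hochberg, over 13405 genes). Only T05H10.4 passed in let-7(n2853) and in the double mutant, and T05H10.4 and C17G1.5 passed in lin-41(xe11). The background was 0.0149% of tested genes for let-7(n2853), 0.127% for lin-41(xe11) and 0.0298% for the double mutant. T05H10.4 was above the early hours by 2.09 ± 0.32 on the log2 scale for let-7(n2853) (edgeR, adjusted p = 0.00113), 2.08 ± 0.33 for lin-41(xe11) (0.000818) and 1.81 ± 0.32 for the double mutant (0.00243). It was above the late hours by 1.37 ± 0.36 (0.0135), 1.46 ± 0.32 (0.00209) and 1.40 ± 0.32 (0.00301). In let-7(n2853), which has no 38 h library, the call was lost without the 36 h library (0.95, adjusted p = 0.226).

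C17G1.5, which was singled out after its values were seen, ran from 6 to 7.78 CPM at 18 to 22 h in lin-41(xe11), from 9.74 to 12.9 at 26 to 30 h and from 6.64 to 8.91 at 34 to 38 h. The middle hours were above the early hours by 0.79 ± 0.18 (edgeR, adjusted p = 0.00788) and above the late hours by 0.58 ± 0.18 (0.0200). The call was lost without the lin-41(xe11) library of 18, 28, 36 or 38 h. C17G1.5 overlaps nas-37 on the other strand. F10B5.3 was above the early hours by 4.81 ± 1.27 for let-7(n2853) (0.0220), 5.00 ± 1.31 for lin-41(xe11) (0.0164) and 4.77 ± 1.27 for the double mutant (0.0222). Above the late hours it was at 0.34 ± 1.18 (0.916), 1.74 ± 1.09 (0.249) and 1.62 ± 1.08 (0.304). F10B5.3 was thus not called peaked, and why the late contrast was not called was not tested. Its 34 h level was above that of 28 h in let-7(n2853), with 13.8 against 11.5 CPM. It was below that of 28 h in lin-41(xe11), with 13.6 against 22.8 CPM, and in the double mutant, with 13.1 against 16.7 CPM.

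The separate contrasts give the same picture for the list. The middle hours were above the early hours for 3 genes in let-7(n2853), for 5 in lin-41(xe11) and for 5 in the double mutant, where 5.16%, 7.11% and 5.24% of tested genes were called in that direction. They were above the late hours for 1, 11 and 6 genes, where 4.45%, 12% and 11.1% were called. Y38E10A.14 was below its early hours in lin-41(xe11), by -0.76 ± 0.19 (edgeR, adjusted p = 0.0129), where 5.76% of tested genes were called in that direction. In let-7(n2853) and the double mutant 0 genes were below their early hours, where 4.66% and 4.32% were called. These shares are near or under the background. The late hours of let-7(n2853) lack 38 h, so its late contrasts are not compared with those of the other mutants. The median difference over the 100 genes was 0.32, 0.44 and 0.33 against the early hours and 0.47, 0.27 and 0.20 against the late hours, while the medians over all tested genes lay between -0.01 and 0.02. The hours of a window can differ widely: K10H10.4 averaged 79.6 ± 93.6 CPM (SD over 3 hours) in the middle hours of let-7(n2853).

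The windows of the rule are 8 h apart, centre to centre, so a steady rhythm of 8 h has the same mean in all 3. Once the 2 humps had been seen, a test of such a rhythm was added. For each mutant strain edgeR fitted a level, a straight trend and a wave of period 8 h (its cosine and sine terms) to the 32 mutant libraries, and the F test of the wave was adjusted over 13377 genes. The rhythm was called for 72 of the 100 genes in let-7(n2853), for 69 in lin-41(xe11) and for 68 in the double mutant. The background was 23.5%, 22.1% and 20.2% of tested genes. It was called in all 3 mutants for 61 genes and in no mutant for 23, against 14.3% and 69.5% of tested genes. Without the doubted libraries of let-7(n2853) at 18 h and the double mutant at 22 h the counts were 69, 70 and 48, where 20.7%, 22.3% and 12.7% of tested genes were called. Under that setting 45 genes were called in all 3 and 25 in none, against 10.04% and 72.4%. With a period of 7 h the counts were 67, 45 and 46, where 22.2%, 13.9% and 17.7% were called. With 9 h they were 0, 0 and 0, where 0%, 0.0224% and 0% were called.

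**Figure D4:**
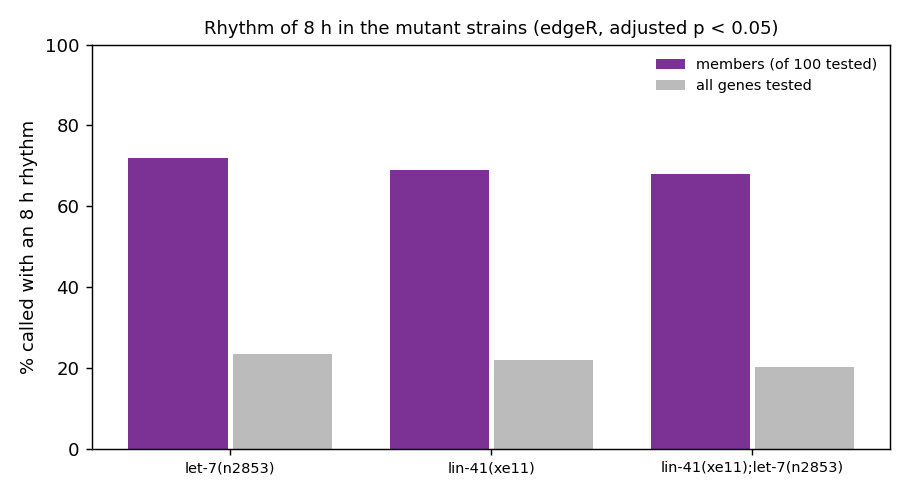
Percentage of genes called with an 8 h rhythm (vertical axis, from 0) in each mutant strain, for the 100 genes of the list (purple) and for all 13377 tested genes (grey); edgeR, adjusted p under 0.05. The purple bars stand at 72, 69 and 68%, the grey bars at 23.5, 22.1 and 20.2%.

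The N2 shape uses hours of the rule, so its counts beside the rhythm of the mutants are a description. Of the 48 genes with an N2 valley at 26 h, 45 were called rhythmic in all 3 mutants and 0 in none, and without the doubted libraries 32 and 0. The other candidates of that N2 shape had 63.4% in all 3 and 16.3% in none, and 44.1% and 18.1% without the doubted libraries. Of the 37 genes whose N2 valley was above 0.75 of the lower hump or absent, 8 were called in all 3 and 22 in none, and without the doubted libraries 6 and 22. Here the other candidates had 5.16% and 78.3%, and 2.63% and 81.4%. The 23 genes with no call include F10B5.3 and T05H10.4, as well as C17G1.5, T20D4.10, T19C9.8, F55G11.8 and F28C10.3. T09B4.8 and F58G6.3, which moved little, are among them too.

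The crest of the rhythm came later in let-7(n2853) than in the other strains. A cosine of 8 h was fitted to log2(CPM + 1) per gene and strain. Genes with a fitted peak-to-trough difference of at least 1 on the log2 scale were kept. These were 64 for let-7(n2853), 59 for lin-41(xe11), 58 for the double mutant and 49 in N2. Of the other candidates 18.6%, 17.7%, 16.8% and 14.1% passed this bound. The mean crest of the kept genes of the list lay at 30.97 h in let-7(n2853), 29.96 h in lin-41(xe11), 30.28 h in the double mutant and 30.36 h in N2. Gene by gene, the crest was later in let-7(n2853) than in N2 for 49 of 49 genes kept in both, by a median of 0.572 h. In lin-41(xe11) it was later than in N2 for 2 of 48 genes, with a median difference of -0.37 h, and in the double mutant for 16 of 48, with a median difference of -0.09 h. The other candidates were offset alike: 408 of 416 were later in let-7(n2853) than in N2, by a median of 0.566 h. In lin-41(xe11) 43 of 415 other candidates were later than in N2, with a median difference of -0.288 h. In the double mutant 187 of 416 were later, with a median difference of -0.04 h. Without the let-7(n2853) library of 18 h the crest was later than in N2 for 49 of 49 genes, by a median of 0.478 h, and without the double mutant library of 22 h it was later for 14 of 49 genes, with a median difference of -0.163 h. The genes of a strain share its libraries, and the cause of the offset was not tested.

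Single hours differed from N2 in both directions. At 28 h the 100 genes were below N2 by a median of -0.60 on the log2(CPM + 0.5) scale in let-7(n2853), where 15 of them were above N2. In lin-41(xe11) the median was 0.11 and 58 were above N2, and in the double mutant it was -0.32 and 16 were above. Over all genes the medians at 28 h were 0.00, -0.06 and -0.06. At 30 h the medians of the list were 0.06, 0.03 and 0.00, beside 0.10, 0.06 and -0.03 over all genes. At 36 h they were 0.25, 0.36 and 0.55, beside 0.15, 0.02 and 0.09. At 38 h they were 0.43 for lin-41(xe11) and 0.44 for the double mutant, beside 0.12 and 0.10, with 91 and 89 of 100 genes above N2. These N2 hours chose the genes, so the differences are a description.

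N2 can be compared in a test only at 24 and 32 h, which the choice did not use. With hour as a block and 8 libraries, 3 degrees of freedom were left, and edgeR called 0 of the 100 genes between any mutant and N2. The background was 1.33% of tested genes for let-7(n2853) (0.393% higher and 0.934% lower), 0% for lin-41(xe11) and 0.00772% for the double mutant. At an unadjusted p under 0.05 there were 14, 26 and 27 genes, where 19.01%, 9.16% and 9.56% of tested genes passed. DESeq2 called 2, 7 and 9, where it called 4.01%, 0.926% and 0.656% of tested genes. The median difference from N2 was 0.07, -0.13 and -0.13. These 3 comparisons share the N2 libraries.

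The level at 26 to 30 h was then compared between the mutant strains with hour as a block (24 libraries, 13331 genes, edgeR). Between let-7(n2853) and the double mutant 9 of the 100 genes were called, 4 higher and 5 lower in let-7(n2853), where 5.75% and 5.96% of tested genes were called in these directions (11.7% in all). Between let-7(n2853) and lin-41(xe11) 5 were called, 2 higher and 3 lower, where 4.22% and 4.31% were called (8.54% in all). Both comparisons use the let-7(n2853) libraries. Between lin-41(xe11) and the double mutant 0 were called, where 0.0225% of tested genes were called, 0.015% higher and 0.0075% lower (3 of the 100 at an unadjusted p under 0.05, 0 with DESeq2). These counts are near or under the background. With hour left out of the fit, 0 of the 100 genes were called in each of the 3 pairs, so every call below holds only with hour as a block.

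T19C9.8 (plus strand, V:17239097-17240721, 369 codons) had the largest called difference and was lower in let-7(n2853). It had 10.7, 17.7 and 12.6 CPM at 26, 28 and 30 h in let-7(n2853), against 32.2, 33.6 and 38.3 CPM in lin-41(xe11) and 21.6, 42.8 and 20.8 CPM in the double mutant. The let-7(n2853) values did not overlap those of either strain, and N2 had 30.5, 47.5 and 31.6 CPM. The difference was -1.13 ± 0.20 on the log2 scale against the double mutant (edgeR, adjusted p = 0.00454) and -1.46 ± 0.20 against lin-41(xe11) (0.00141). Its mean over the late hours was above that over the middle hours in all 3 mutants, so the ratio of the rule was 0.836, 0.811 and 0.783.

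F21C10.9 (minus strand, V:9097201-9098696, 317 codons) was higher in let-7(n2853). It had 20.8, 23.6 and 37.7 CPM there, against 8.74, 16.9 and 17.4 CPM in lin-41(xe11) and 8.57, 13.02 and 14.9 CPM in the double mutant. The difference was 1.06 ± 0.18 against the double mutant (edgeR, adjusted p = 0.00391) and 0.88 ± 0.18 against lin-41(xe11) (0.0101). The let-7(n2853) value was the highest of the 4 strains at every hour from 18 to 36 h, and N2 stayed between 9.14 and 15.6 CPM over these hours. The call against lin-41(xe11) was lost without the let-7(n2853) library of 30 h (0.0547) or the lin-41(xe11) library of 26 h (0.0578). F21C10.9 overlaps F21C10.10 on the other strand.

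F55G11.8 (plus strand, IV:12962808-12964645, 341 codons) was lower in let-7(n2853), with 26.6, 29.3 and 40 CPM, against 32.7, 46.4 and 45.5 CPM in lin-41(xe11) and 34.9, 48.4 and 48 CPM in the double mutant. The difference was -0.57 ± 0.10 against the double mutant (edgeR, adjusted p = 0.00423) and -0.45 ± 0.10 against lin-41(xe11) (0.0134). At each of the 3 hours let-7(n2853) was the lowest of the mutants. The call against lin-41(xe11) was lost without the 28 h library of let-7(n2853) (0.0683) or of lin-41(xe11) (0.0813).

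Smaller differences were found for 3 more genes. T20D4.10 was higher in let-7(n2853), by 0.43 ± 0.10 against the double mutant (0.0164) and 0.39 ± 0.10 against lin-41(xe11) (0.0303). At 36 h it stood at 39.1 CPM in let-7(n2853), against 20.6 CPM in lin-41(xe11), 20.5 CPM in the double mutant and 7.48 CPM in N2. The N2 value is a description, since low N2 values at 34 to 38 h helped choose the genes. Y17G7B.8, which overlaps Y17G7B.12 on the other strand, was higher in let-7(n2853) than in the double mutant by 0.56 ± 0.16 (0.0364). F28C10.3, a low gene of 4.84 to 7.59 CPM in the middle hours of the mutants, was lower by -0.45 ± 0.10 (0.0137) and -0.41 ± 0.10 (0.0260). The remaining calls against the double mutant were F14D7.6 (0.56 ± 0.16, 0.0409), C16B8.3 (-0.68 ± 0.18, 0.0290) and Y38E10A.14 (-0.67 ± 0.17, 0.0247), named because the count is small. All of these p-values are edgeR's, adjusted over all tested genes. All 6 genes of this paragraph lost a call when single libraries were left out. Against the double mutant, of 24 libraries left out in turn, 3 ended the call for T20D4.10, 3 for F28C10.3, 4 for C16B8.3, 4 for Y38E10A.14, 5 for Y17G7B.8 and 12 for F14D7.6. Against lin-41(xe11), 5 ended it for T20D4.10 and 5 for F28C10.3. These were libraries of 26, 28 or 30 h, and for F14D7.6 also of 18, 20, 22, 34 and 36 h; the highest adjusted p was 0.215.

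**Figure D5:**
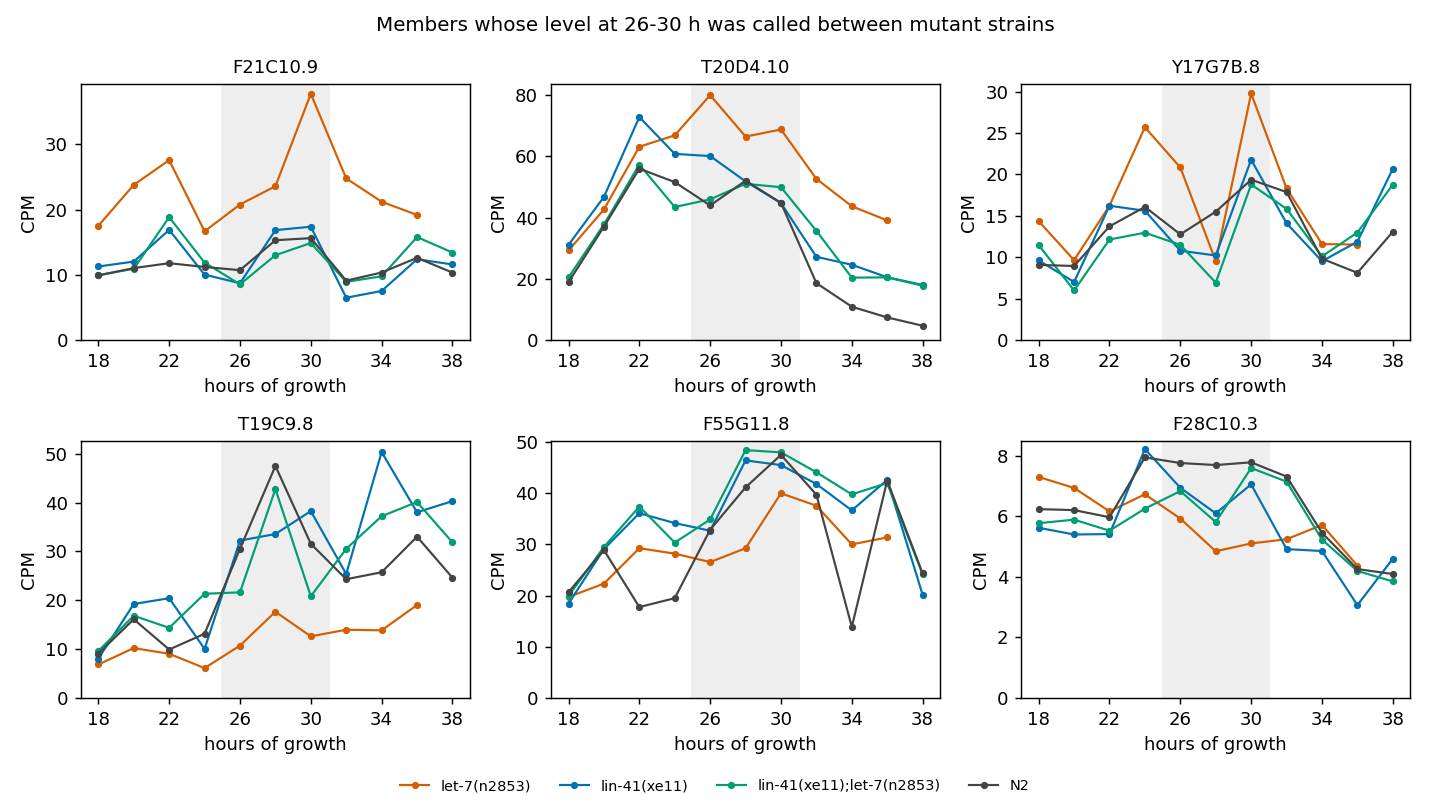
CPM (vertical axis, from 0, own scale per panel) by hours of growth (horizontal axis) for 6 genes called between mutant strains at 26 to 30 h (grey), 1 line per strain. The let-7(n2853) line is the highest in F21C10.9, at 37.7 CPM at 30 h, and the lowest in T19C9.8, at 12.6 CPM at 30 h.

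The height of the hump was tested directly, as the middle level minus the mean of the early and late levels, compared between the strains. edgeR called 0 of the 100 genes and 0% of all tested genes in each of the 3 pairs, and DESeq2 called 0 as well. At an unadjusted p under 0.05 there was 1 gene in each pair. The median difference in this contrast was -0.04 for let-7(n2853) minus the double mutant, 0.09 for lin-41(xe11) minus the double mutant and -0.13 for let-7(n2853) minus lin-41(xe11).

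By annotation, all 100 genes are protein-coding (Ensembl, WBcel235). Their longest coding sequences had a median of 297.5 codons, against 358 in the other candidates, and 19% were under 150 codons, against 10.7%. By chromosome 10 lay on I, 22 on II, 4 on III, 17 on IV, 29 on V and 18 on X. Among the other candidates 17.05% lay on III and 18.8% on V. There were 7 pairs of neighbouring genes of the list within 10000 bases of each other. 26 genes overlapped another annotated gene, 25 of them on the opposite strand, among them C06E8.5 with prk-1, R03C1.1 with cog-1, D2096.6 with aagr-1 and C34F6.11 with the collagen gene col-179. The strand setting of the counting is not given, so the counts of these genes may hold reads of their partners.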

How the data were processed

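Ribosome-depleted total RNA of whole worms was sequenced in 43 libraries (Tri-Reagent, Ribo-Zero and ScriptSeq v2, per the labels' protocols). The authors deposited 1 count per gene and library for 20182 genes. The aligner, counter, strand setting and genome build are not given in the sources used here. The authors also deposited log2 values, which equal the counts after scaling to 1 shared depth among the let-7(n2853) libraries and another among the rest, with 8 added before the logarithm; they served only as an alternative. No column was left unassigned to a sample. Gene symbols matched 18778 IDs through the reference table. Coordinates come from the Ensembl annotation of WBcel235, which need not be the authors' build.

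The labels gave each library's strain and hour. CPM is the count over the column sum. Genes with a mean of at least 1 CPM over the libraries of a fit were tested. Counts were scaled with TMM and tested with edgeR 4.0.16 (quasi-likelihood, R 4.3.3), with Benjamini-Hochberg adjustment over all tested genes and a threshold of 0.05. Errors beside log2 differences are standard errors. The fit of the windows had 17 residual degrees of freedom, that between the mutants 10, that at 24 and 32 h 3 and that of the rhythm 20. Hours of a window stood in for replicates, so change within a window counts as spread. All 100 genes passed the filter in each fit. A peak fit on simulated counts was checked first. DESeq2 1.42.0 and limma 3.58.1 were alternatives, with no scaling, no filter, other windows, no replicate block and each library left out in turn.

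The genes and the marker lists were chosen with earlier results of these data known. Named genes come from the 12 genes of highest rank, the 6 of highest N2 level, those of extreme ratio in each mutant, up to 3 called genes per direction and contrast, the edge of the list and the 12 hyphen-named genes of highest ratio; C17G1.5, F14D7.6 and C16B8.3 were named after their values were seen. The rhythm test and its alternatives were added after the data were seen. Promoter and protein sequences were not used here.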

Additional observations from a re-analysis of the deposited data

Results flagged for a closer look

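Among 36 groups checked, the CPM of 3 genes over the 10 let-7(n2853) libraries had 1 library far from the others, by the gap to the nearest value over the whole range. R03C1.1 stood at 26.1 CPM at 22 h with 10.5 CPM as the next value, a gap of 0.615 of the range. D2096.6 stood at 39.3 CPM at 22 h with 19.9 CPM next, a gap of 0.505. F21C10.9 stood at 37.7 CPM at 30 h with 27.6 CPM next, a gap of 0.482. The critical value for 10 samples is 0.466, and chance alone sets off about 1 in 20 groups. The libraries are hours of 1 course and not repeats of 1 condition, and the 2 genes of 22 h have their first hump there in other strains too: at 22 h lin-41(xe11) had 18.8 and 28.7 CPM, the double mutant 29.6 and 37.8 CPM and N2 16.8 and 22.5 CPM.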

How the results depend on the processing

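The count of peaked genes was 1 for let-7(n2853), 2 for lin-41(xe11) and 1 for the double mutant also with DESeq2, with no scaling, with no filter, with limma and without the 2 doubted libraries. In lin-41(xe11) the count was 1 with a late window of 34 and 36 h and 1 with a 2-fold bound. Leaving out each library gave 0 to 1 for let-7(n2853), 1 to 3 for lin-41(xe11) and 1 to 1 for the double mutant. The labels give no replicate numbers, and the shared hour served as the pairing. With no replicate block the calls at 26 to 30 h were 0 for let-7(n2853) minus the double mutant, against 9, and 0 for let-7(n2853) minus lin-41(xe11), against 5; it changed no other count. Leaving out each library gave 3 to 10 and 3 to 7 of these calls. The fewest came without the double mutant library of 26 h and without that of let-7(n2853) at 26 h or lin-41(xe11) at 28 h. The range was 0 to 0 for lin-41(xe11) minus the double mutant and for the contrast of the middle with the early and late levels. T19C9.8 kept both calls whichever library was left out, but not with no replicate block (0.0833 and 0.0520). F28C10.3 against lin-41(xe11) was also lost with DESeq2 (0.0731), no scaling (0.0605) and limma (0.0565), and its adjusted p over all alternatives ran up to 0.345.

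At 24 and 32 h the counts against N2 were 2, 7 and 9 with DESeq2 and 2, 6 and 3 with no filter, in the order let-7(n2853), lin-41(xe11), double mutant; without single libraries they were 0 to 3, 0 to 2 and 0 to 0. The 8 h rhythm had 0 calls in each strain with a period of 9 h, and 45 in lin-41(xe11) with 7 h. The N2 median width was 4.62 h above the lowest hour. The list itself kept 90 of 100 genes with TMM scaling, 97 and 94 with constants of 0.1 and 2, and 88 with a late mean of 34 and 36 h. It kept 48 to 90 when 1 N2 library was left out, with 48 without 30 h, 63 without 22 h and 66 without 18 h, so it rests heavily on those 3 libraries. No log2 difference of a single gene changed direction, and 40 values of single genes lost their call under some alternative. Of the counts and medians under the alternatives, 32 moved beyond the bound set for them and 310 did not. The cause of these changes was not tested.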

Other observations

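Genes with hyphenated names met the same N2 rule as well: 127 of 6339 reached the ratio of the last sequence-named gene. Among the 12 highest were argk-1 (4.54), which encodes an arginine kinase, fog-3 (2.71) and fog-1 (1.9995), which promote sperm fate in the germline, and the collagen gene col-156 (2.61). Collagen genes of the col family made up 20 of the 127, out of 79 col genes among the hyphen-named candidates.

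Of the marker lists, the molting clock regulators and the precuticle and apical matrix genes were most often called with an 8 h rhythm: 6, 7 and 6 of 8 and 8, 9 and 8 of 10 in the order let-7(n2853), lin-41(xe11), double mutant. Strut and late larval collagens had 2, 2 and 2 of 6, seam genes 2, 4 and 2 of 7, vulva and uterus genes 1, 1 and 1 of 10, neuron genes 2, 1 and 1 of 8, intestine genes 2, 2 and 4 of 8 and pharynx genes 2, 2 and 2 of 6. The tested markers of spermatogenesis (15), oocyte and eggshell (10), proliferating germline (8) and body muscle (7) had 0 calls by edgeR. Peaked calls were found only for fog-1 in let-7(n2853) and for fog-1 and fog-3 in lin-41(xe11) and the double mutant. The lists were chosen with earlier results of these data known, and their counts are descriptions.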
